A study of Mus musculus with 6 samples.

Results

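Interferon-stimulated genes are genes whose transcription rises when a cell receives an interferon, and 44 of them, chosen by symbol, were followed in cultured brain group 2 innate lymphoid cells (ILC2). All 44 symbols were found among the 24421 rows of the deposited count table. They comprise 37 genes best known as targets of type I interferon and 7 guanosine triphosphatases (GTPases) of the Gbp and immunity-related families, namely Gbp2, Gbp3, Igtp, Ifi47, Iigp1, Irgm1 and Irgm2. ILC2 are tissue lymphocytes without rearranged antigen receptors that make type 2 cytokines. RNA-seq was done on 3 young libraries, from C57BL/6 mice of 2 to 3 months, and 3 old libraries, from C57BL/6 mice of 20 to 22 months. Cells of both groups had been sorted from brain by surface markers and cultured for 2 weeks with IL7, IL2, IL33, SCF (stem cell factor) and 20% fetal calf serum, with no interferon named among the additions. No label tells whether libraries in 1 group are from distinct animals, pools or cultures, so each p-value reflects spread among these 6 libraries, which may be technical.

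Type I interferons (interferon alpha and beta) signal through the receptor chains Ifnar1 and Ifnar2, the kinases Jak1 and Tyk2 and a transcription factor complex that includes Stat2 and Irf9. That complex binds the interferon-stimulated response element, whose core repeats the letters GAAA. Interferon gamma, the type II interferon, signals through Ifngr1 and Ifngr2 to the gamma-activated site in its target genes. Many targets answer to both, and the Gbp and immunity-related GTPases, which attack the vacuoles of intracellular parasites and bacteria, are strongly induced by interferon gamma.

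Library totals ran from 16477157 to 20804291 counts. Transcripts that define ILC2 were present in both groups, among them Gata3 (mean 411.7 in young and 190.6 in old), Il1rl1, Il5, Il13, Rora and Areg, in counts-per-million (CPM) of TMM-scaled library size. Klrg1, a marker of mature ILC2, was at 86.5 and 1.45 CPM, and Kit at 2.64 and 0 CPM. Of the 14 listed ILC2 markers, Gata3, Il1rl1, Il5, Il2ra, Icos and Klrg1 were called lower in old and Thy1 higher. Kit was not tested, and the others were not called. All 4 markers of NK cells and ILC1 had 0 counts. So did Cd3e, Cd4, Cd8a and Cd5 of 6 T cell markers, and Cd79a and Ms4a1 of the B cell markers. Siglech and Ly6d, of 6 markers of plasmacytoid dendritic cells, major producers of type I interferon, had 0 counts too. Other T cell and plasmacytoid dendritic cell markers had counts. Cd3d had 57 counts in young and 114 in old libraries. Means in young and old were 9.48 and 8.48 CPM for Cd3g, 25.9 and 41.3 for Tcf4, 15.7 and 21.9 for Pacsin1, and 189.6 and 215.2 for Bst2. Mcpt8, 1 of 5 mast cell and basophil markers, was at 254 and 265 CPM and was not called. Of the others, Fcer1a, Mcpt4 and Ms4a2 had 0 counts. Cpa3 had 56 counts in young and 3 in old libraries. Pecam1, an endothelial marker, was at 86.7 and 150 CPM and was called higher. Summed microglial and macrophage markers ran from 5.24 to 17.9 CPM in young and from 60.8 to 97.2 CPM in old libraries, but the 8 genes of that list did not move together. Tmem119 (means of 0.673 CPM in young and 51.1 CPM in old), P2ry12 (2.49 and 15.5) and Lyz2 (0 and 9.395) were called higher, Adgre1 (2.60 and 0) was called lower, Cx3cr1 (3.76 and 0.466) and Aif1 (2.16 and 1.75) were not called, and Csf1r and C1qa had 0 counts. Cd79b was at means of 19.0 CPM in young and 44.5 CPM in old. The part of other cells in the results on interferon-stimulated genes was not tested.

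Most GTPases of the set were lower in old libraries, the small membrane proteins of the Ifitm family were higher, and the best known antiviral effectors were close to 0 in both groups. Of the 44 genes, 6 had 0 counts in all 6 libraries, 7 more had too few counts to be tested, and 31 passed the filter on low counts. Among those 31, edgeR's quasi-likelihood test called 6 higher (Ifitm1, Ifitm2, Ifitm3, Ly6e, Isg20 and Ifi27l2a) and 5 lower in old libraries (Igtp, Irgm1, Gbp2, Iigp1 and Samhd1). Over all 11805 tested genes 19.4% were called, 11.2% higher and 8.14% lower. The 3 young and 3 old values did not overlap for 18 of the 31, against 38.2% of all tested genes. The higher genes were all from the type I induced group, with 6 higher and 1 lower of 24 tested. The GTPases had 4 lower and none higher of 7 tested. The median log2 change, old minus young, was 0.04 over the 24 type I induced genes (-0.31 to 0.21 when single libraries were left out), -1.18 over the 7 GTPases and -0.10 over all tested genes. In bulk RNA, fewer cells that express a gene and less RNA per cell cannot be told apart. Scaling by library totals moved the median of all tested genes to -0.52 and gave 5 higher and 9 lower members. Of all 11805 tested genes it called 718 higher and 2380 lower, so each direction is stated under TMM scaling. The count of lower members was 3 without young library 1 and 3 without old library 1, and both were fits in which Gbp2 and Samhd1 lost their call. Over all tested genes those fits called 399 of 12209 and 758 of 12276 lower.

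**Figure D1:**
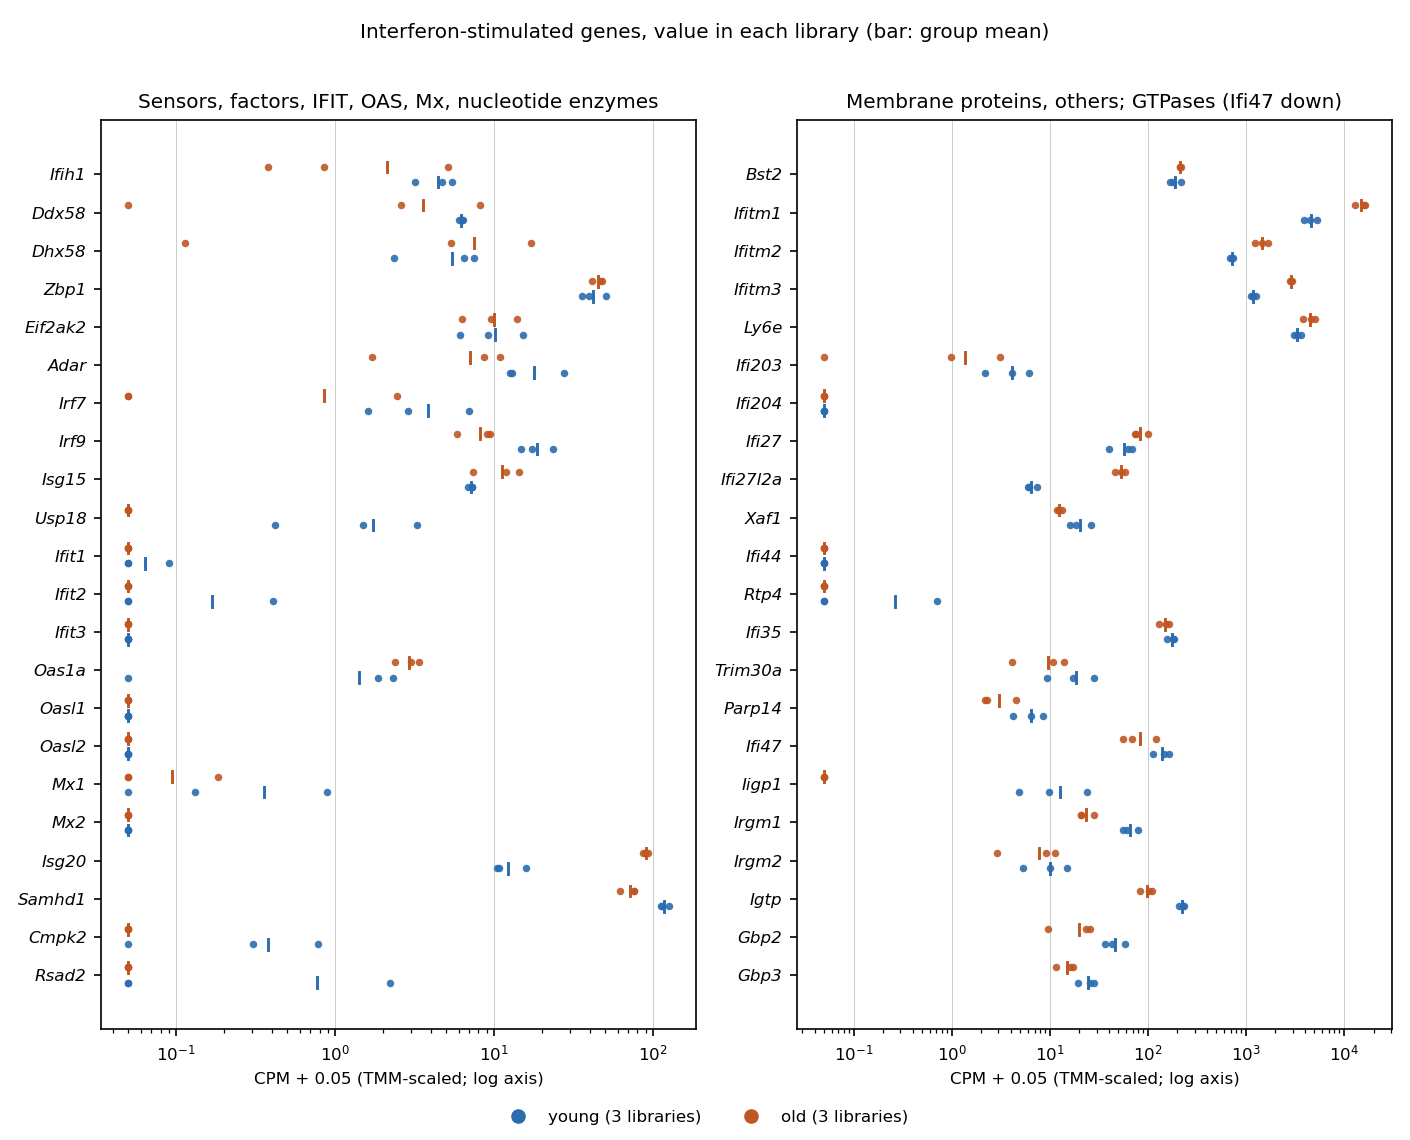
CPM of each of the 44 genes in each library, with 0.05 added so that zeros can be drawn on the log axis; blue points are young, orange points are old libraries, and bars are group means. The old libraries lie to the right for Ifitm1, Ifitm2, Ifitm3, Isg20 and Ifi27l2a and to the left for Igtp and Irgm1, while Ifit3, Oasl1, Oasl2, Mx2, Ifi204 and Ifi44 sit at the left edge with 0 counts in all 6 libraries.

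Among the GTPases, Igtp (also called Irgm3), at chr11:58199556-58207591 (GRCm38), was at 234.7, 226.8 and 209.4 CPM in young libraries 1 to 3 and at 82.5, 103.8 and 110.4 CPM in old libraries 1 to 3. The groups did not overlap, and the mean was 2.26-fold higher in young. Its log2 change was -1.18 ± 0.17 (SE; adjusted p = 0.0007, edgeR). Irgm1, which guards host membranes and autophagy against the other immunity-related GTPases, lies on the same chromosome at chr11:48861968-48871683. It was at 56.0, 61.7 and 79.6 CPM in young and 20.7, 20.6 and 28.0 CPM in old libraries. Every young library was above every old library, and the log2 change was -1.51 ± 0.26 (SE; adjusted p = 0.00211). Both calls held when any single library was left out, with adjusted p of at most 0.00776 for Igtp and 0.0131 for Irgm1.

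Iigp1, a GTPase that coats and breaks the parasite vacuole, had 189, 118 and 467 counts in young libraries 1 to 3, which is 9.86, 4.80 and 23.7 CPM. It had 0 counts in each old library. Against a floor of 3 counts over the old group, 0.0657 CPM, it was at least 186-fold lower in old (adjusted p = 0.000927), and the call held when any single library was left out, although the young libraries themselves spread widely.

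Gbp2, a guanylate-binding protein at chr3:142620602-142638008 that is recruited to pathogen vacuoles, was at 43.1, 36.4 and 58.0 CPM in young and 23.4, 25.9 and 9.65 CPM in old libraries. Its groups did not overlap, and its log2 change was -1.22 ± 0.38 (SE; adjusted p = 0.0446). The call was near the threshold and held in 1 of the 6 fits that left a library out. Leaving out young library 1 (adjusted p = 0.110), young library 2 (0.0646), young library 3 (0.155), old library 1 (0.0647) or old library 3 (0.0782) ended it, as did offsets for transcript length and GC content, called the length and GC correction below (log2 change -0.97, adjusted p = 0.123) and RLE in place of TMM scaling (adjusted p = 0.0502).

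The remaining 3 GTPases did not pass edgeR's test under TMM scaling. Ifi47 (also called Irg47) was at 145.2, 113.9 and 162.9 CPM in young and 56.3, 69.6 and 121.5 CPM in old libraries, so that old library 3 lay above young library 2. Its log2 change was -0.77 ± 0.27 (SE; adjusted p = 0.0746), so it did not pass, but it was called lower with DESeq2 (adjusted p = 0.0323), with limma-voom (0.0329), without a filter on low counts (0.0308), with library totals (-1.18, 0.0124), after the length and GC correction (-0.83, 0.0377) and without old library 3 (-1.16, 0.00821). Gbp3 was at 28.0, 25.7 and 19.2 CPM in young and 16.03, 11.6 and 17.1 CPM in old libraries, with a log2 change of -0.70 ± 0.35 (adjusted p = 0.199), and was called lower with library totals. Irgm2, whose annotated span overlaps that of Igtp on the same strand, was at 10.1, 14.9 and 5.24 CPM in young and 11.3, 2.83 and 9.02 CPM in old libraries. Its groups overlapped, and its log2 change of -0.39 ± 0.64 turned to 0.08 after the length and GC correction, to 0.03 without young library 2 and to 0.0091 without old library 2. Of Igtp, 8.01% of the exon length overlaps Irgm2 and 8.37% of the 75-base words of its transcript are shared with Irgm2. Reads of these 2 genes may therefore be mixed. Summed over the 7 GTPases, the level ran from 484.2 to 558.1 CPM in young and from 210.4 to 295.7 CPM in old libraries, and Igtp and Ifi47 made up most of it in both groups.

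Further GTPases of the same families, listed outside the 44, had 2 lower and none higher of 9 tested, with a median log2 change of -1.21. Of all tested genes 8.14% were lower and 11.2% higher. Gbp4 was at 121.5, 102.2 and 127.4 CPM in young and 61.9, 25.6 and 54.0 CPM in old libraries (log2 change -1.31 ± 0.29 SE, adjusted p = 0.00983), and its call was lost after the length and GC correction (adjusted p = 0.0552). Gbp8 was at 30.1, 23.5 and 47.9 CPM in young and 11.8, 13.3 and 15.3 CPM in old libraries (-1.33 ± 0.35, adjusted p = 0.023). Its groups did not overlap, but leaving out young library 1 (adjusted p = 0.0639), young library 3 (0.113), old library 1 (0.0647) or old library 2 (0.0625) ended the call. Gbp11 went the other way, at 1.62, 2.28 and 5.74 CPM in young and 6.96, 8.28 and 11.4 CPM in old libraries. Those groups did not overlap, but Gbp11 was not called (1.47 ± 0.71, adjusted p = 0.188). These genes sit in tandem clusters with similar sequence, so their reads may have been split.

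Promoter sequence is shown because genes with the same binding letters stood on opposite sides of the comparison. RefSeq promoter sequence (GRCm38.p6, 250 bases before to 50 bases after the start) was matched for 32 of the 44 genes and searched on both strands for a pair of GAAA with 2 bases between them, the core of the interferon-stimulated response element (a pair of TTTC when read on the other strand), and for TTCNNNGAA, the core of the gamma-activated site. The first was found in 5 of 6 GTPases and 13 of 26 type I induced genes with an entry, against 3.99% of all 27025 genes with an entry. The second was found in 2 of 6 and 9 of 26, against 9.55% of all genes. Stretches are printed 5′ to 3′ on the gene's own strand, with every match in capitals.
Irgm1 (chr11:48871425-48871460, minus strand): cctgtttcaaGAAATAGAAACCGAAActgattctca
Igtp (chr11:58199501-58199541, plus strand): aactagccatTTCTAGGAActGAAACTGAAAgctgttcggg
Irgm2 (chr11:58214892-58214932, plus strand): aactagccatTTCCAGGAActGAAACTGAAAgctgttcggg
Gbp2 (chr3:142620594-142620623, plus strand): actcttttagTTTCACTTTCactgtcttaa
Gbp3 (chr3:142559989-142560024, plus strand): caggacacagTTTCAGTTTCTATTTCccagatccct
Ifitm2 (chr7:140955988-140956017, minus strand): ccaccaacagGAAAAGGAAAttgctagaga
Ifitm3 (chr7:141010714-141010743, minus strand, from the second transcribed base on): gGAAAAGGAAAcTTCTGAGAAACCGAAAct
Isg15 (chr4:156200865-156200906, minus strand): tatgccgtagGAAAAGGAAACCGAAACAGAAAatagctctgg
Ifit1 (chr19:34640775-34640823, plus strand): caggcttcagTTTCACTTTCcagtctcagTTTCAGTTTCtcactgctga
Igtp and Irgm2 share 40 of these 41 bases, and the substitution is T14C (the base of Igtp first, positions counted from 1 at the 5′ end of the printed stretch), inside the unfixed letters of TTCNNNGAA. In both, the 2 motifs stand in the same order and spacing, while Igtp was called lower and Irgm2 was not called. Their difference in change was not tested, and their exons overlap in part, as given above. The GAAA pair was found in 3 of 4 genes called lower (Irgm1, Igtp and Gbp2), in 2 of 4 called higher (Ifitm2 and Ifitm3), in 10 of 16 not called and in 3 of 8 not tested, so holding it did not go with a single direction. A match describes letters and is not evidence of binding.

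The Ifitm genes encode small membrane proteins that block the fusion of enveloped viruses with the cell, and they lie within a stretch of chromosome 7. Ifitm1 (chr7:140967221-140969825) was at 4457, 3930 and 5307 CPM in young and 15970, 16364 and 12815 CPM in old libraries. The lowest old library was more than double the highest young library, the mean rose 3.30-fold and the log2 change was 1.72 ± 0.13 (SE; adjusted p = 1.42e-05). Ifitm3 (chr7:141009586-141010770), the member most studied in influenza, was at 1171, 1124 and 1277 CPM in young and 2948, 2806 and 2887 CPM in old libraries. Its libraries were tight within each group, and its log2 change was 1.27 ± 0.11 (SE; adjusted p = 1.99e-05). Ifitm2 (chr7:140954837-140955987) was at 743.8, 695.7 and 725.6 CPM in young and 1676, 1452 and 1252 CPM in old libraries, a log2 change of 1.02 ± 0.13 (SE; adjusted p = 0.000399). After the length and GC correction Ifitm1 and Ifitm3 were at 1.19 and 0.57 and remained called, and Ifitm2 was at 0.21 and lost its call (adjusted p = 0.265). Ifitm2 counts are also uncertain, since 42.0% of the 75-base words of its transcript occur in transcripts of other annotated genes and 40.9% of its exon length overlaps the same-strand gene Gm45717.

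Ly6e, a membrane-anchored protein of the Ly6 family that restricts coronavirus entry, was at 3299, 3624 and 3061 CPM in young and 5072, 4624 and 3856 CPM in old libraries. The groups did not overlap, and its log2 change was 0.44 ± 0.12 (SE; adjusted p = 0.0279). Scaling by library totals gave a log2 change of 0.02 and no call. Leaving out young library 1 (adjusted p = 0.117), young library 3 (0.0502), old library 1 (0.119) or old library 2 (0.0922) also ended it. Bst2 (tetherin), which holds budding virions at the cell surface, was at 181.5, 166.9 and 220.3 CPM in young and 213.5, 217.6 and 214.4 CPM in old libraries. Old values fell inside the young range, and the log2 change of 0.18 ± 0.15 did not pass (adjusted p = 0.472). It turned to -0.23 with library totals and to -0.56 after the length and GC correction, where it was called lower (adjusted p = 0.0195).

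Per kilobase of transcript, Ifitm1 was the most abundant of the 44 genes, at 5175 CPM per kilobase in young and 17063 in old libraries, followed by Ifitm3 (1757 and 4248), with Ly6e (1459 and 1980) and Ifitm2 (1102 and 2229) in the next places. Bst2 was at 239.3 and 271.7, Igtp at 110.6 and 48.9, and Isg15 at 9.37 and 14.9 CPM per kilobase. The 3 Ifitm genes and Ly6e together held 88.5 to 89.1% of the summed CPM of the 44 genes in young libraries and 95.1 to 96.2% in old libraries. A sum over the set is therefore mostly a sum of these 4 transcripts, and it ran from 10518 to 11714 CPM in young and from 21888 to 26684 CPM in old libraries.

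**Figure D2:**
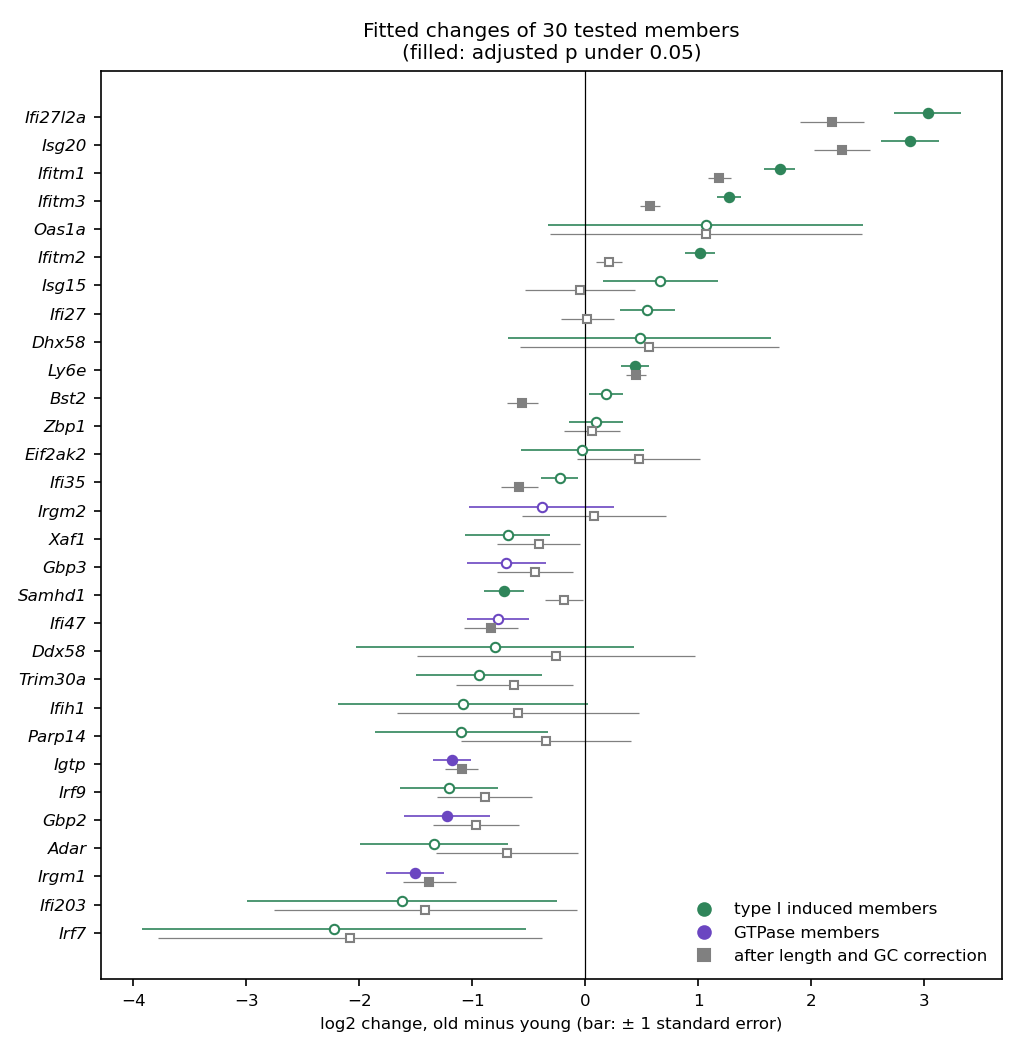
Log2 change, old minus young, of the 30 tested members other than Iigp1 (which had 0 counts in the old group), with bars of 1 standard error; circles are the TMM-scaled values, grey squares those after the length and GC correction, and filled symbols have an adjusted p under 0.05. Ifi27l2a and Isg20 stand at the top near 3, Igtp, Gbp2 and Irgm1 between -1.18 and -1.51, and Bst2, Isg15, Irgm2 and Eif2ak2 change sign with the correction.

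Outside the membrane proteins, the genes with the largest rises were Ifi27l2a and Isg20. Ifi27l2a, a small hydrophobic protein of the Ifi27 family at chr12:103442167-103443680, was at 7.35, 6.02 and 5.95 CPM in young and 52.8, 46.6 and 58.6 CPM in old libraries. Its mean was 8.18-fold higher in old, with a log2 change of 3.03 ± 0.30 (SE; adjusted p = 6.79e-05). Its neighbour Ifi27 (chr12:103434211-103440239) was at 68.2, 40.4 and 62.0 CPM in young and 100.7, 75.3 and 73.5 CPM in old libraries and did not pass (log2 change 0.55 ± 0.24, adjusted p = 0.15). Its groups did not overlap. Whether these neighbours differ in their change was not tested.

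Isg20, an exonuclease that degrades viral RNA, lies at chr7:78913424-78920396. It was at 10.4, 10.7 and 15.8 CPM in young and 89.9, 93.9 and 86.9 CPM in old libraries, 7.33-fold higher in old. The 3 old values lay within a narrow band far above every young value, and the log2 change was 2.87 ± 0.25 (SE; adjusted p = 3.35e-05). After the length and GC correction Isg20 and Ifi27l2a were at 2.27 and 2.18 and kept their calls. Samhd1, which limits retroviruses by depleting nucleotides, moved the other way, at 126.7, 113.6 and 112.9 CPM in young and 62.5, 76.2 and 75.8 CPM in old libraries. Its log2 change was -0.72 ± 0.18 (SE; adjusted p = 0.016). Leaving out young library 1 (adjusted p = 0.0971) or old library 1 (0.0626) ended the call, as did the length and GC correction (log2 change -0.19, adjusted p = 0.528).

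The effector families that define a classical antiviral response were nearly silent. Ifit3, Oasl1, Oasl2, Mx2, Ifi204 and Ifi44 had 0 counts in all 6 libraries, where 3 counts, the limit that a count of 0 allows, correspond to 0.122 to 0.202 CPM per library. Ifit1 had 1 count over the 6 libraries and Ifit2 had 7. Ifit proteins bind viral RNA that lacks cap methylation, and Oas proteins activate an RNA-degrading enzyme when they meet double-stranded RNA. C57BL/6 mice carry a defective Mx1 gene, whose transcript had 18 counts in young and 2 in old libraries. Rsad2 (viperin) had 53 counts and Rtp4 had 16, all in young library 2. Cmpk2, the neighbour of Rsad2, had 14 counts in young library 1 and 5 in young library 3. None of these genes was tested, since their counts were below the filter.

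Isg15, a ubiquitin-like protein that is attached to newly made proteins, was low as well, at 6.78, 7.25 and 7.22 CPM in young and 11.9, 14.4 and 7.37 CPM in old libraries. The log2 change of 0.66 ± 0.51 did not pass (adjusted p = 0.424), and it was -0.04 after the length and GC correction. Usp18, which removes Isg15 and damps the type I receptor, had 28, 9 and 64 counts in young libraries 1 to 3 and 0 in each old library, at least 24.3-fold lower in old against the floor of 3 counts over the group. It was not tested after the filter on low counts. Oas1a was at 1.83, 2.28 and 0 CPM in young and 3.31, 2.96 and 2.35 CPM in old libraries (log2 change 1.07 ± 1.39, adjusted p = 0.668), and 47.6% of its 75-base words are shared with Oas1g.

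The sensors and enzymes that recognise viral nucleic acid were expressed at low to moderate level, and none of the 6 passed. Zbp1, a sensor of left-handed nucleic acid that can start cell death, was the most abundant of them per kilobase of transcript (21.2 CPM per kilobase in young, 22.6 in old), at 39.7, 35.9 and 50.9 CPM in young and 47.6, 41.3 and 46.2 CPM in old libraries. Its groups overlapped, with a log2 change of 0.10 ± 0.24 (adjusted p = 0.838) and -0.32 with library totals. The RIG-I-like receptors varied strongly between old libraries. Ddx58 (RIG-I) was at 6.21, 5.94 and 6.30 CPM in young but 8.08, 0 and 2.54 CPM in old libraries, Ifih1 (MDA5) at 4.64, 3.13 and 5.44 against 0.331, 0.808 and 5.08 CPM, and Dhx58 (LGP2) at 7.41, 6.39 and 2.29 against 5.30, 17.1 and 0.0635 CPM. Their log2 changes of -0.80, -1.08 and 0.48 carried standard errors of 1.230, 1.105 and 1.164, so that a change of 2-fold could not be resolved. Eif2ak2 (PKR), which stops translation on double-stranded RNA, was at 9.13, 6.07 and 15.1 CPM in young and 13.98, 9.56 and 6.22 CPM in old libraries, which overlapped (-0.02 ± 0.55). Adar, which edits double-stranded RNA, was at 12.6, 27.8 and 13.0 CPM in young and 1.66, 10.8 and 8.64 CPM in old libraries without overlap (-1.34 ± 0.65, adjusted p = 0.19), and 16.8% of its exon length overlaps Chrnb2 on the opposite strand.

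The transcription factors among the 44 were lower in mean without passing. Irf9, the DNA-binding part of the type I complex, was at 14.7, 23.6 and 17.4 CPM in young and 9.41, 5.79 and 9.02 CPM in old libraries, which did not overlap (log2 change -1.20 ± 0.43, adjusted p = 0.0786), and scaling by library totals put it among the lower genes (-1.62, adjusted p = 0.0209). Irf7, which amplifies interferon production, was at 1.56, 6.96 and 2.85 CPM in young and 0, 0 and 2.41 CPM in old libraries (-2.22 ± 1.70, adjusted p = 0.424). It was called lower without old library 3 (adjusted p = 0.0240), which leaves an old group with 0 counts. Among the other genes, Ifi35 was at 180.2, 158.4 and 185.0 CPM in young and 165.2, 130.2 and 152.0 CPM in old libraries. Those groups overlapped, and its log2 change of -0.23 ± 0.16 (adjusted p = 0.387) went to -0.64 with library totals and -0.58 after the length and GC correction, where it was called lower (adjusted p = 0.0157 and 0.0331). Xaf1, a partner of cell death regulators, was at 26.2, 18.3 and 15.9 CPM in young and 13.2, 11.9 and 12.4 CPM in old libraries. Its groups did not overlap, yet the log2 change of -0.69 ± 0.38 did not pass (adjusted p = 0.246). Trim30a was at 17.3, 9.403 and 28.4 CPM in young and 4.11, 10.6 and 13.9 CPM in old libraries, Parp14 at 6.36, 4.15 and 8.49 against 4.504, 2.15 and 2.22 CPM, and Ifi203 at 2.14, 4.03 and 6.15 against 0, 0.943 and 3.05 CPM. All 3 overlapped between groups, with log2 changes of -0.94, -1.10 and -1.62 and standard errors of 0.56, 0.76 and 1.37.

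Upstream of these targets, transcripts of type I and type III interferons (Ifnb1, Ifna1, Ifna2, Ifna4, Ifnk, Ifne, Ifnz, Ifnl2 and Ifnl3) and of the type III receptor chain Ifnlr1 had 0 counts in all 6 libraries. Ifng was at 4.54, 6.92 and 10.5 CPM in young and had 0 counts in old libraries, at least 111-fold lower against a floor of 3 counts over the group (adjusted p = 0.00211), with 25.9% of its exon length shared with a predicted gene. Of 6 tested ligand and receptor genes 4 were lower and 1 was higher, where 8.14% of all tested genes were lower and 11.2% higher. Ifngr1 was at 92.3, 86.7 and 140.4 CPM in young and 40.6, 40.3 and 11.7 CPM in old libraries (log2 change -1.79 ± 0.41 SE, adjusted p = 0.0106). Its partner chain Ifngr2 was at 54.6, 62.0 and 83.1 CPM in young and 20.9, 25.5 and 31.0 CPM in old libraries (-1.37 ± 0.26, adjusted p = 0.00442). Neither receptor's groups overlapped, and both kept their call after the length and GC correction (-1.64 and -0.90).

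The type I receptor chains moved in opposite directions. Ifnar1 was at 33.7, 24.6 and 27.0 CPM in young and 5.70, 10.8 and 12.8 CPM in old libraries (log2 change -1.54 ± 0.40 SE, adjusted p = 0.0202). The length and GC correction (-1.03, adjusted p = 0.0999) and the omission of young library 1 (0.105) each ended its call. Ifnar2, by contrast, was at 51.2, 61.6 and 38.9 CPM in young and 93.5, 98.0 and 78.4 CPM in old libraries (0.83 ± 0.22, adjusted p = 0.0237). The rise of Ifnar2 was larger after the correction (1.22, adjusted p = 0.00165), but scaling by library totals (0.41) ended its call, as did leaving out young library 1 (adjusted p = 0.0769), old library 1 (0.0671) or old library 2 (0.0888).

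Of 11 kinases, STATs and interferon regulatory factors, 6 were lower and 1 was higher, with a median log2 change of -0.83 that was -0.32 after the length and GC correction. The shares over all tested genes were 8.14% lower and 11.2% higher. Jak1 was at 193.0, 218.0 and 165.1 CPM in young and 98.0, 100.7 and 95.7 CPM in old libraries (-0.97 ± 0.17 SE, adjusted p = 0.00211). Its groups did not overlap, but it lost its call after the correction (-0.32, adjusted p = 0.173). Irf1, an early target of interferon gamma, was at 72.0, 61.9 and 77.3 CPM in young and 30.4, 37.6 and 50.5 CPM in old libraries (-0.83 ± 0.24, adjusted p = 0.0352). Leaving out young library 1 (adjusted p = 0.127), young library 2 (0.0586), young library 3 (0.101), old library 1 (0.108) or old library 2 (0.104) ended its call. The length and GC correction ended it as well (-0.80, adjusted p = 0.0555). Irf8, a factor of myeloid and B cells, was higher in old, at 6.00, 13.1 and 7.37 CPM in young and 38.6, 45.3 and 33.8 CPM in old libraries (2.15 ± 0.37, adjusted p = 0.00239), beside the higher sum, of mixed direction by gene, of the microglial and macrophage markers given above. Irf5 was at 24.0, 32.6 and 12.1 CPM in young and 6.89, 7.003 and 6.86 CPM in old libraries (-1.73 ± 0.46, adjusted p = 0.0218), a call that ended on leaving out young library 1 (0.0867), young library 2 (0.134), old library 2 (0.0554) or old library 3 (0.0518), and Stat2 did not pass (-0.76 ± 0.78, adjusted p = 0.567).

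**Figure D3:**
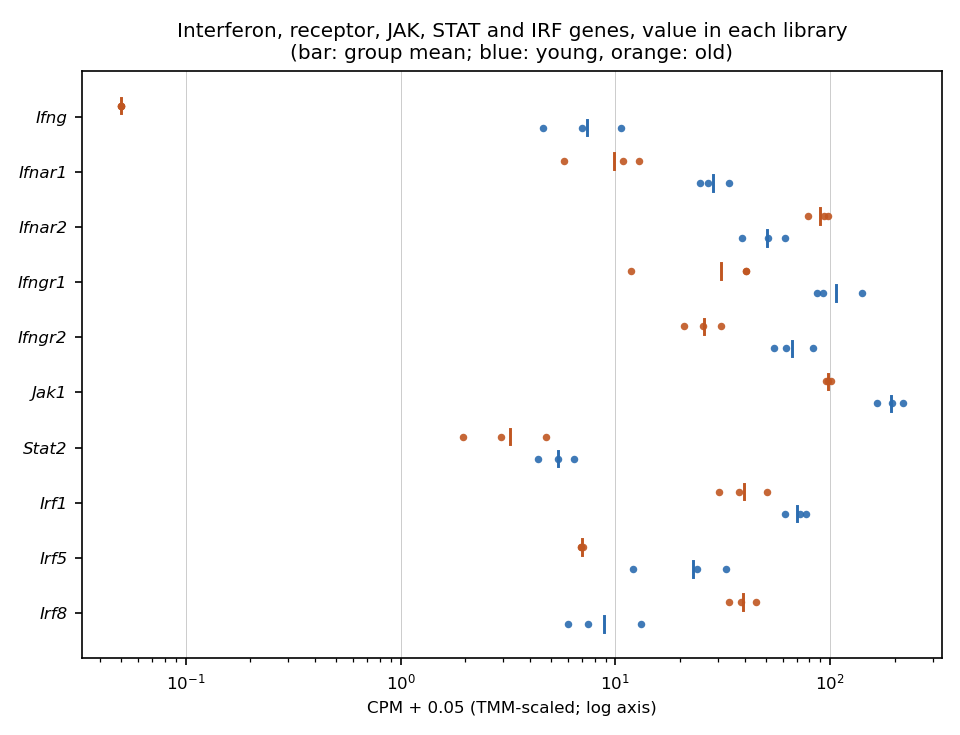
CPM of 10 interferon, receptor, JAK, STAT and IRF genes described in the text in each library, with 0.05 added on a log axis; blue points are young, orange points are old libraries, and bars are group means. Ifng sits at the left edge in old libraries with 0 counts, Ifngr1 and Ifngr2 lie lower in old, and Ifnar2 and Irf8 lie higher.

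In the remaining pathway lists, 2 of 11 tested adaptors of interferon induction were lower and none was higher. Of 12 negative regulators 1 was higher and none lower, where 11.2% of all tested genes were higher and 8.14% lower. Trex1, an exonuclease that clears cytosolic DNA, was at 105.9, 118.7 and 98.4 CPM in young and 61.7, 53.1 and 54.9 CPM in old libraries and had a log2 change of -0.93 ± 0.18 (SE; adjusted p = 0.00518), but its exons lie wholly inside the annotated gene Atrip, which leaves its counts uncertain. Irak4 was at 12.3, 14.3 and 19.5 CPM in young and 4.57, 4.11 and 6.86 CPM in old libraries (-1.57 ± 0.50, adjusted p = 0.0481), a call that held in 1 of the 6 fits that left a library out and ended on omission of young library 1 (0.101), young library 2 (0.114), young library 3 (0.158), old library 1 (0.0931) or old library 2 (0.113). The call of Irak4 was also lost after the length and GC correction (-1.13, adjusted p = 0.153). Among 12 negative regulators Socs3 was at 172.6, 191.9 and 94.3 CPM in young and 310.1, 289.0 and 224.5 CPM in old libraries and rose by 0.84 ± 0.24 (adjusted p = 0.0332), a call that ended on omission of young library 1 (0.0625), old library 1 (0.106) or old library 2 (0.099) and with library totals (0.42), and none fell. Socs1, the main brake on interferon gamma signalling, was at 1011 CPM in mean in young and 988.0 CPM in old libraries, with overlap (-0.03 ± 0.12, adjusted p = 0.892).

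Of 34 tested genes on a list of further interferon-induced genes, 3 were higher and none lower, where 11.2% of all tested genes were higher and 8.14% lower, with a median log2 change of -0.16. Psmb9 and Psmb8, catalytic subunits of the immunoproteasome, rose by 0.66 ± 0.15 and 0.50 ± 0.12 (SE; adjusted p = 0.0105 and 0.0163), and Epsti1 rose by 1.04 ± 0.29 (adjusted p = 0.0292). Both subunits lost their call after the length and GC correction (0.26 and 0.23), and all 3 genes lost it with library totals (0.24, 0.08 and 0.62). Psmb8 also lost it on omission of young library 1 (adjusted p = 0.0848), old library 1 (0.0647) or old library 2 (0.0813), and Epsti1 on omission of young library 1 (0.0934), young library 3 (0.0639), old library 2 (0.120) or old library 3 (0.0536).

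Transcript length went along with the direction of change in these libraries, and its part in how the 44 genes divide was not tested. When tested genes were divided by length into 5 bins of equal size, the shortest bin (56 to 1660 bases) had a median log2 change of 0.50, with 30.9% called higher and 3.48% lower. In the longest bin (4919 bases and more) the median was -0.49, with 2.38% called higher and 12.2% lower. Of the 6 members called higher, 5 (Ifitm1, Ifitm2, Ifitm3, Isg20 and Ifi27l2a) are in the shortest bin, where 9 members lie in all. Ifi27l2a and Isg20 exceeded that bin's median by the most. Parp14, Ifih1 and Adar, in the longest bin, had log2 changes of -1.10, -1.08 and -1.34.

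The GTPases had a median transcript length of 2516 bases, against 2980 bases over all tested genes. Of the 7, 4 (Igtp, Irgm1, Gbp2 and Ifi47) lie in the next-to-shortest bin (1660 to 2535 bases), where the median log2 change was 0.03 and 6.78% of genes were called lower. After the length and GC correction the median over the 7 GTPases was -0.97, with 4 called lower (Igtp, Irgm1, Iigp1 and Ifi47), and that over the 24 type I induced genes was -0.12, with 5 higher and 2 lower. The median over all tested genes was then 0.06, with 1252 of 11805 called higher and 636 lower. Gbp2 and Ifi47 thus exchanged places across the threshold, while Igtp, Irgm1 and Iigp1 were called with and without the correction.

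**Figure D4:**
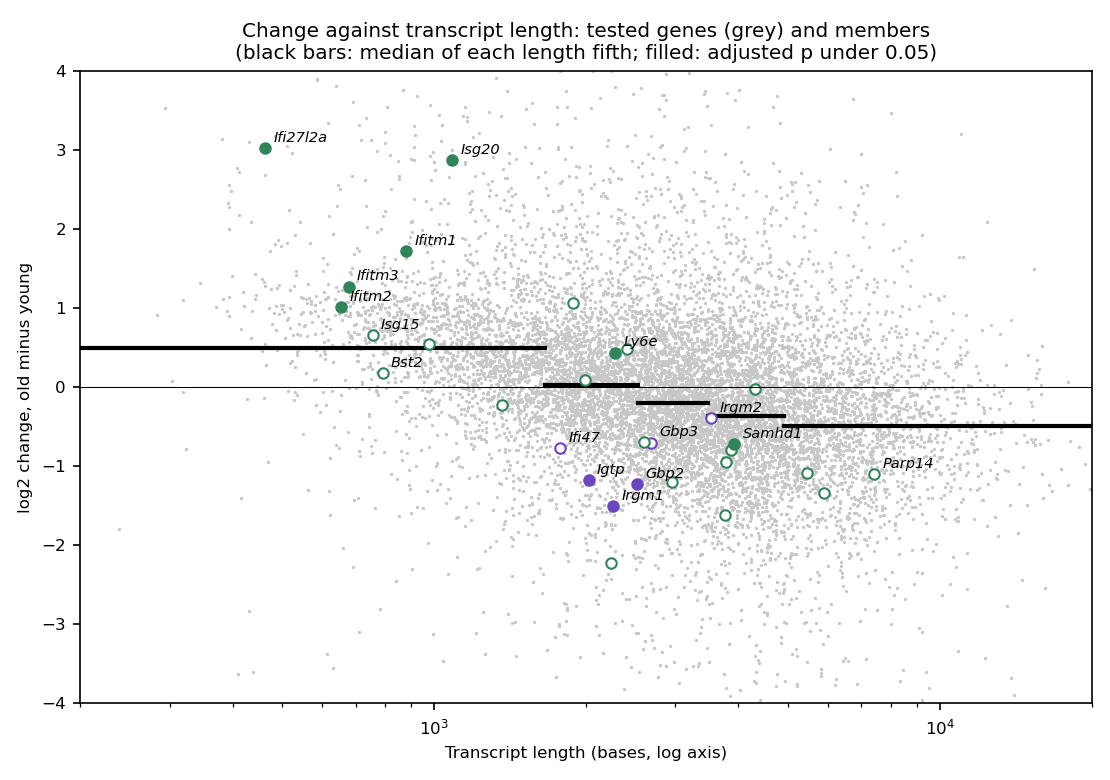
Log2 change, old minus young, against transcript length on a log axis for tested genes (grey) and members (green: type I induced, purple: GTPases; filled: adjusted p under 0.05), with Iigp1 and genes beyond the axis limits left out. Black bars are the medians of the 5 length bins, falling from 0.50 to -0.49; Ifitm1, Isg20 and Ifi27l2a lie above the bar of the shortest bin and Igtp, Irgm1 and Gbp2 below that of the next.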

How the data were processed

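The data are a single table of raw gene counts per symbol and library that the authors deposited without normalization. Per the submitters' processing notes the tools included STAR 2.5.3a, Cufflinks 2.0 and DESeq2 1.1, and the build was mm10. For the counting tool, the annotation and use of strand, the sources used here give nothing, so reads of overlapping or antisense genes may be mixed. Samples were grouped by the age in their titles. Genes passing filterByExpr (minimum count 10, minimum total 15; 11805 genes) were fitted over the whole table in R 4.3.3 with edgeR 4.0.16 (TMM, glmQLFit, glmQLFTest), and p-values were Benjamini-Hochberg adjusted over all of them, with a threshold of 0.05. A standard error is the log2 change divided by the root of F. Lengths, exon overlaps and shared 75-base words came from GENCODE vM21 (GRCm38, the assembly of mm10), and 96.2% of tested genes had a length. Alternatives were DESeq2 1.42.0, limma 3.58.1 (voom), other scalings and filters, each library left out, the replicate number as a block, and offsets for length and GC content (mgcv 1.9.3). The members, gene lists and tests were chosen with earlier results of these data known. Every member is accounted for. Values per library are given for members that passed or had a mean of at least 20 CPM, and for others where their family needs it. Of each pathway list, up to 4 genes by smallest p are named, besides Ifnar1, Ifnar2, Ifngr1, Ifngr2, Stat2 and Irf1; some genes of these lists are not reported here. The fit was tested on simulated data.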

Additional observations from a re-analysis of the deposited data

How the results depend on the processing

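Igtp, Irgm1, Iigp1, Ifitm1, Ifitm3, Isg20 and Ifi27l2a kept their direction and call under every alternative run. The count of members called higher was 5 or 6 throughout. The count called lower was 9 with library totals, 7 without a filter on low counts (Ifi47 and Usp18 added), 6 with DESeq2 or limma-voom (Ifi47 added), 4 with RLE (Gbp2 lost) and 3 to 6 when single libraries were left out. Among all tested genes the count called lower was 2380 of 11805 with library totals, 1081 of 15262 without that filter, 1221 with DESeq2, 997 with limma-voom and 891 with RLE. It was 800 with the replicate number as a block and 399 to 849 when single libraries were left out. Their count called higher ran from 718 with library totals to 1633 with DESeq2. The median log2 change of type I induced genes was -0.37 with library totals, -0.72 without a filter on low counts, -0.12 after the length and GC correction, and -0.31 to 0.21 when single libraries were left out. That of the GTPases was -1.60 with library totals, -0.97 after the correction, and -1.21 to -0.99 when single libraries were left out. Over all tested genes the median was -0.10 under TMM scaling and -0.52 with library totals. Without a filter on low counts the type I induced median covered 31 genes in place of 24. The cause of the shifts in these medians was not tested. With the replicate number as a block the type I induced median was -0.11, or -0.28 with the correction as well, and 6 members were higher and 5 lower without the correction, with Gbp2 (adjusted p = 0.0814) replaced by Ifi47 (0.0355). Deviations of same-numbered libraries correlated at 0.00883 to 0.0414, and young library 2 did not correlate best with its own number, so the numbers were not taken as pairs. These genes, none called in the TMM-scaled fit, changed sign. Bst2 was at -0.23 with library totals, -0.56 after the correction and -0.55 with the block too. Dhx58 was at -1.32 with limma-voom, -0.82 with the block, -0.71 with block and correction, and -0.999 to 1.06 when single libraries were left out (below 0 without old library 2). Eif2ak2 was at 0.00043 with RLE, 0.0014 with upper quartile, 0.00051 with DESeq2, 0.035 with limma-voom, 0.018 with the block, 0.47 after the correction, 0.49 with both, and -0.35 to 0.42 when single libraries were left out. Irgm2 was at 0.078 after the correction, 0.032 with the block too, and -0.77 to 0.028 when single libraries were left out. Isg15 was at -0.045 after the correction and -0.083 with the block too, and Zbp1 at -0.32 with library totals. At this depth, members under about 10 CPM had standard errors up to 1.70 on the log2 scale.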
